A study of Mus musculus with 12 samples.

Results

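Integrin chains were followed under 2 forms of tumour necrosis factor (TNF), in endothelial cells that were taken from wild-type newborn mice and kept in culture. The 10 genes, Itga1, Itga2, Itga3, Itga5, Itga6, Itga9, Itgav, Itgb1, Itgb3 and Itgb5, were chosen by their symbol in the platform annotation, and for each gene the brightest probe set by mean log2(signal + 16) over the 12 arrays was used. They carried 32 probe sets and are 10 of the 18193 genes on the array that have a probe set with 1 symbol. The tmTNF group (4 arrays) was stably transfected with a membrane-bound murine TNF that cannot be cleaved, the labels' model of chronic activation. The soluble TNF group (4 arrays) received soluble TNF at 20 ng/ml for 4 h, the labels' model of transient activation, and the control group (4 arrays) was mock-transfected. All cells were grown in serum-supplemented DMEM, and each array took about 5 micrograms of total RNA. The promoter of the transgene and the number of transfected clones are not given in the sources used here, nor is it clear from the labels whether the soluble TNF cells had been mock-transfected. The study set each form of TNF against the control cells. Both of those comparisons use the same 4 control arrays, so they are not independent of each other.

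Integrins are receptors that span the membrane as a pair of chains, alpha and beta. The alpha chain largely sets which matrix protein is bound, such as a collagen, a laminin or fibronectin, and the tail of the beta chain connects the receptor to the actin cytoskeleton through talin and kindlin. In endothelium they hold the cell on its basement membrane and take part in vessel sprouting, and TNF is a cytokine that turns resting endothelium into a surface to which leukocytes adhere. Most endothelial alpha chains pair with the product of Itgb1, while the product of Itgav can also pair with those of Itgb3 and Itgb5.

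No integrin chain passed the test in any comparison. Of the 10 genes, 9 were tested and Itga2 was too dim. Of the 9, 0 were called by limma between tmTNF and control cells at an adjusted p under 0.05 over all 10269 genes, where 0.195% of all genes were called. Between soluble TNF and control cells 0 of 9 were called, against 0.039% of all genes, and between tmTNF and soluble TNF cells 0 of 9, against 1.22% of all genes. At an unadjusted p under 0.05 there was 1 chain in each comparison, Itga1 for tmTNF minus control, Itgav for soluble TNF minus control and Itga1 for tmTNF minus soluble TNF, where the shares of all genes were 7.56%, 12.7% and 19.9% in that order. Groups did not overlap for 1 of the 9 chains between tmTNF and control cells (3.17% of all genes), for 0 between soluble TNF and control cells (8.11% of all genes) and for 0 between tmTNF and soluble TNF cells (16.1% of all genes). The median log2 fold change of the 9 chains was 0.27 for tmTNF minus control, against 0.026 over all genes. It was 0.01 for soluble TNF minus control, against -0.045 over all genes, and 0.07 for tmTNF minus soluble TNF, against 0.079.

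The arrays differed in their endothelial marker level, also within a group, and this is given first because several chains moved with it. The mean log2(signal + 16) of 16 endothelial markers was 12.18, 9.93, 12.43 and 9.94 on tmTNF arrays 1 to 4. It was 10.28, 11.24, 11.42 and 10.80 on the soluble TNF arrays and 11.50, 12.22, 8.91 and 11.97 on the control arrays. The summed marker signal ran between 30722 and 151247 in tmTNF cells, between 40403 and 79626 in soluble TNF cells and between 16275 and 132382 in control cells, with 14 to 16, 14 to 16 and 11 to 16 of the 16 markers at a signal of 100 or more. The endothelial junction genes Pecam1 and Cdh5 reached 100 on all 12 arrays, so endothelial transcripts were measured on each of them. The 3 lowest arrays, tmTNF 2, tmTNF 4 and control 3, had the highest signals of Krt19, a keratin of simple epithelia and mesothelium, at 11494, 5564 and 7119.8, against at most 3244 on any other array. The same 3 arrays had Aldh1a1, a retinal-oxidising enzyme gene of the mesothelial and epithelial list, at 3839.5, 4872 and 5066.5, against at most 132 on any other array. Msln, the gene of the mesothelial surface protein mesothelin, was at 2460.4, 1288.5 and 3412 on them, against at most 1578 elsewhere. The 10 mesothelial and epithelial markers summed to between 302 and 18148 in tmTNF cells, between 517 and 4617 in soluble TNF cells and between 563 and 15825 in control cells, with at most 4 of them at 100 on any array. Krt19 and Aldh1a1 were thus highest on those arrays, while Msln was higher on soluble TNF 4 than on tmTNF 4. The rest of the list differed. Upk3b, Wt1, Lrrn4, Cdh1 and Krt18 were under 100 on all 12 arrays. Krt8 reached 100 on control 1 alone, and Epcam on tmTNF 2, tmTNF 4 and control 2. The 9 fibroblast markers summed to between 358 and 8492 in tmTNF cells, between 233 and 8171 in soluble TNF cells and between 351 and 10087 in control cells, with at most 4 of them at 100 on any array. Among them Pdgfra was highest on tmTNF 2, tmTNF 4 and control 3, at 699, 943.7 and 578.8. Dcn was highest on tmTNF 2 and tmTNF 4, at 3276.5 and 7270.8. Col1a1, Col1a2 and Col3a1 were highest on soluble TNF 1, soluble TNF 4 and control 3. Lum, Thy1, Fbln1 and Postn were under 100 on all 12 arrays. Of 9 leukocyte markers, whose sums ran between 5275 and 7742 in tmTNF cells, between 694 and 1222 in soluble TNF cells and between 923 and 18970.2 in control cells, at most 4 reached 100 on an array. Ptprc, the pan-leukocyte marker, was under 100 on all 12 arrays, as were Adgre1, Tyrobp and Cd3e. The monocyte and macrophage genes Cd68, Cd14 and Csf1r each reached 100 on 11 arrays, Lyz2 on 4 and Laptm5 on 1. Cd68 lay between 63.3 and 6728 in tmTNF cells, between 150 and 232 in soluble TNF cells and between 255 and 18210.0 in control cells. Cd14 was highest on tmTNF 2, tmTNF 4 and control 3, at 5129, 4762.5 and 1406, against at most 632 on any other array. The sums of 9 mural markers ran between 324 and 2293, between 1081 and 1891 and between 257 and 1425 in tmTNF, soluble TNF and control cells, and those of 5 platelet markers between 913 and 3519.5, between 1116 and 5224 and between 875 and 5006. The part of these marker differences in the chains' values was not tested, and in bulk RNA fewer cells of a type and less RNA per cell cannot be told apart.

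**Figure D1:**
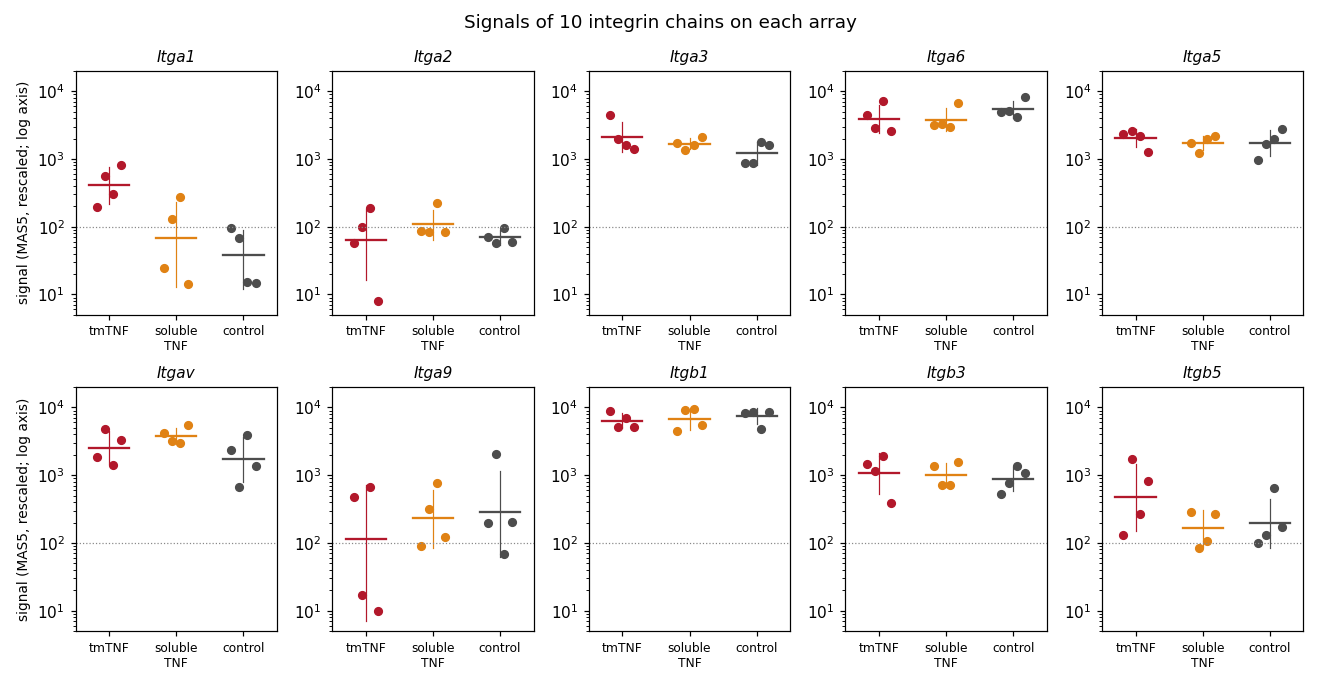
Signal of each integrin chain on each array (MAS5 signal rescaled to a trimmed mean of 500, log axis), with tmTNF cells at the left of each panel, then soluble TNF and control cells (4 arrays each). Horizontal bars are the group means and vertical bars ± 1 SD, both on the log2(signal + 16) scale, and the dotted line is a signal of 100. In the Itga1 panel the 4 tmTNF arrays lie between 197 and 806, all above the 4 control arrays.

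Among the chains that form collagen receptors, Itga1 was the one whose tmTNF and control arrays did not overlap. Itga1 encodes the alpha chain of a receptor for collagens that pairs with the product of Itgb1. Its signal was 197, 556, 306 and 806 on the tmTNF arrays, 24.4, 131, 272 and 14.1 on the soluble TNF arrays and 94.7, 67.5, 15.5 and 14.7 on the control arrays. Every tmTNF array was above every control array, while no control array and 2 of the 4 soluble TNF arrays reached 100. The group means were 466 ± 272 in tmTNF cells, 110.5 ± 120 in soluble TNF cells and 48.1 ± 39.7 in control cells (SD, n = 4 each). All control arrays lay under 100, and with them set to 100 the tmTNF mean on the log2(signal + 16) scale was 3.65-fold higher. That value makes no allowance for the spread between arrays, and the 95% confidence interval of the fitted fold began at 2.52. The fitted log2 fold change was 2.95 ± 0.75 (SE, 95% confidence interval 1.33 to 4.58), with an adjusted p of 0.2 by limma.

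This difference did not pass the test, and Itga1 ranked 95th by p among the 10269 genes. At the spread of Itga1 within groups, a log2 change of 4.30 would have been needed for a call. For tmTNF minus soluble TNF the log2 fold change was 2.32 ± 0.75 (adjusted p = 0.132 by limma), and the groups overlapped through the array soluble TNF 3. For soluble TNF minus control it was 0.63 ± 0.75 (interval -0.99 to 2.25, adjusted p = 0.759 by limma), so this design gave no order for these neighbouring levels. Without the 3 arrays lowest in endothelial markers, tmTNF 2, tmTNF 4 and control 3, the tmTNF minus control value was 1.99 with an adjusted p of 0.824 by limma, and tmTNF minus soluble TNF was 1.63 with 0.332. The 2 brightest tmTNF arrays for Itga1, 2 and 4, were among those left out. The second Itga1 probe set was under 100 on all 12 arrays and was not tested.

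The 3 genes whose pattern over the 12 arrays was most like that of Itga1 were Tapbp (r = 0.952), which encodes the tapasin that loads peptides onto MHC class I molecules, Sp100 (r = 0.951), which encodes a nuclear body protein, and AW112010 (r = 0.948). The measure was Pearson's r of log2(signal + 16), given as a description because the arrays share groups. Tapbp had signals between 7041 and 15196 in tmTNF cells, between 2349.7 and 9583 in soluble TNF cells and between 1977 and 6231 in control cells. The array soluble TNF 3 was the highest of its group, as it was for Itga1. For tmTNF minus control the log2 fold change of Tapbp was 1.67 ± 0.46 (adjusted p = 0.268 by limma) and that of Sp100 2.31 ± 0.58 (adjusted p = 0.194 by limma).

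Itga2, the alpha chain of the other main collagen receptor, was near or below 100 on most arrays and was not tested. Its single probe set gave 57.1, 97.9, 186 and 8.1 on the tmTNF arrays, 87.6, 82.7, 222 and 82.0 on the soluble TNF arrays and 69.9, 57.0, 96.5 and 60.0 on the control arrays. The array tmTNF 3 and the array soluble TNF 3 were the only 2 of 12 to reach 100. The means of 87.3 ± 75.4, 119 ± 69.0 and 70.9 ± 18 (SD, n = 4 each) therefore say little about an order of the 3 groups.

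The laminin-binding alpha chains, Itga3 and Itga6, were measured on all 12 arrays. Itga3 had signals of 4482, 1971.5, 1588 and 1384 on the tmTNF arrays, 1692, 1365.5, 1603.5 and 2129.9 on the soluble TNF arrays and 869.5, 875, 1782 and 1596 on the control arrays. The array tmTNF 1 stood well above the other 11, and the groups overlapped. In the fit the log2 fold change was 0.78 ± 0.37 for tmTNF minus control (interval -0.02 to 1.58, adjusted p = 0.668 by limma) and 0.42 without the array tmTNF 1. Against control, soluble TNF cells gave 0.46 ± 0.37 (adjusted p = 0.621 by limma), and tmTNF minus soluble TNF gave 0.32 ± 0.37 (adjusted p = 0.659 by limma). The 2 other Itga3 probe sets gave larger values in the same direction, 1.46 and 1.24 for tmTNF minus control and 1.25 and 0.87 for soluble TNF minus control.

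Itga6, whose product joins that of Itgb1 or Itgb4, had its highest mean in control cells. Its signals were 4395, 2859, 7229 and 2566 on the tmTNF arrays, 3194, 3264, 2990.0 and 6733 on the soluble TNF arrays and 4962, 5014.5, 4185 and 8125 on the control arrays. All 3 ranges overlapped, and the means were 4262 ± 2130, 4045 ± 1800 and 5572 ± 1740 (SD, n = 4 each). The log2 fold changes were -0.46 ± 0.36 for tmTNF minus control (adjusted p = 0.877 by limma), -0.50 ± 0.36 for soluble TNF minus control (adjusted p = 0.583 by limma) and, between the TNF groups, 0.04 ± 0.36 for tmTNF minus soluble TNF (adjusted p = 0.964 by limma). The last of these was -0.20 when arrays were scaled to the same median, which moved the median of all genes to -0.15.

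The alpha chains that bind fibronectin and other ligands with an RGD motif are Itga5 and Itgav. Itga5, the classical fibronectin receptor chain, had signals of 2311, 2606, 2193 and 1285 on the tmTNF arrays, 1729.7, 1230.1, 1968 and 2154.5 on the soluble TNF arrays and 972, 1638, 1962 and 2778 on the control arrays. The control arrays spanned both other groups, with the lowest and the highest value of all 12. Its log2 fold change was 0.24 ± 0.33 for tmTNF minus control (interval -0.47 to 0.95), 0.01 ± 0.33 for soluble TNF minus control (interval -0.70 to 0.73) and, between the TNF groups, 0.23 ± 0.33 for tmTNF minus soluble TNF, with adjusted p of 0.937, 0.993 and 0.734 by limma in that order. Under scaling to the same median the last value was -0.01.

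Itgav, the alpha chain of the vitronectin receptors, had its highest mean in soluble TNF cells. Its signals were 1846, 4881, 1424 and 3319.7 on the tmTNF arrays, 4141, 3224, 2985 and 5419.6 on the soluble TNF arrays and 2366, 663, 3945 and 1368 on the control arrays. Of the soluble TNF arrays 2 were above every control array, and the other 2 lay under control 3. The means were 2868 ± 1570, 3942 ± 1100 and 2086 ± 1420 (SD, n = 4 each). The log2 fold change for soluble TNF minus control was 1.16 ± 0.51 (interval 0.04 to 2.27, unadjusted p = 0.043), which did not pass after adjustment (adjusted p = 0.385 by limma). It was 0.71 without the array control 2, the dimmest of the 12 for Itgav, and 1.56 without control 3. For tmTNF minus control it was 0.58 ± 0.51 (adjusted p = 0.893 by limma), and for tmTNF minus soluble TNF -0.58 ± 0.51 (adjusted p = 0.554 by limma), which was -1.23 without the 3 arrays lowest in endothelial markers (adjusted p = 0.164 by limma). The second probe set above the filter gave 0.62 for tmTNF minus control and 0.79 for soluble TNF minus control.

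Itga9, the alpha chain of a receptor for tenascin and other ligands, varied more within groups than between them. Its signals were 477, 17.3, 663.5 and 9.9 on the tmTNF arrays, 90.5, 316, 760.1 and 124 on the soluble TNF arrays and 195, 2050.2, 68.3 and 206 on the control arrays. The 3 lowest arrays were tmTNF 4, tmTNF 2 and control 3, the same 3 that were lowest in endothelial markers. The within-group SD was 1.98 on the log2 scale, larger than that of 98.1% of the genes tested, against a median of 0.45. The log2 fold change for tmTNF minus control was -1.21 ± 1.22 (interval -3.87 to 1.46, adjusted p = 0.908 by limma). Without those 3 arrays it was 0.33, and for tmTNF minus soluble TNF it was 1.22 without them, against -0.93 ± 1.22 with them (adjusted p = 0.703 by limma). For soluble TNF minus control it was -0.27 ± 1.22 (adjusted p = 0.947 by limma) and -0.88 without them.

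**Figure D2:**
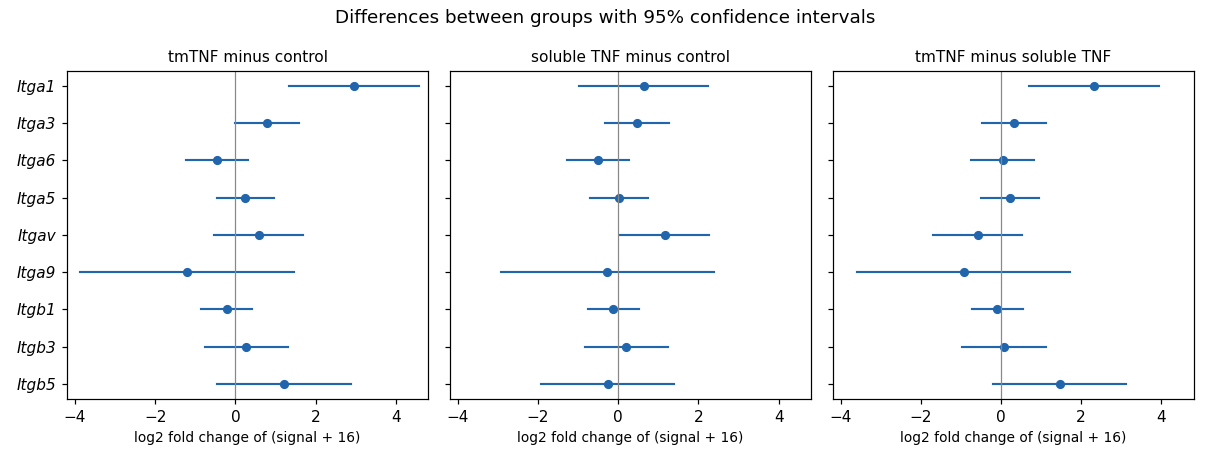
Log2 fold change of (signal + 16) for the 9 chains tested, with 95% confidence intervals from the limma fit, for tmTNF minus control, soluble TNF minus control and tmTNF minus soluble TNF cells (4 arrays each). Of the 27 intervals, those of Itga1 for tmTNF minus control and tmTNF minus soluble TNF and that of Itgav for soluble TNF minus control lie above 0, and none of the 3 passed after adjustment over all genes.

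The common beta chain Itgb1, the partner of most endothelial alpha chains, differed little between the groups. Its signals were 8825, 5205, 6938 and 5105 on the tmTNF arrays, 4424, 9288, 9320.1 and 5541 on the soluble TNF arrays and 8386, 8567, 4869 and 8629 on the control arrays. The means were 6518 ± 1750, 7143 ± 2540 and 7613 ± 1830 (SD, n = 4 each), and the 3 ranges overlapped. Its log2 fold change was -0.22 ± 0.29 for tmTNF minus control (interval -0.86 to 0.41, adjusted p = 0.932 by limma), -0.13 ± 0.29 for soluble TNF minus control (interval -0.76 to 0.51, adjusted p = 0.887 by limma) and -0.10 ± 0.29 for tmTNF minus soluble TNF (interval -0.73 to 0.54, adjusted p = 0.883 by limma). A log2 change of 1.68 would have been needed for a call against control in tmTNF cells, 2.03 in soluble TNF cells. The direction of the last difference was not stable, with 0.01 under quantile normalization and 0.20 without the 3 arrays lowest in endothelial markers. The within-group SD of 0.45 equalled the median gene.

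Itgb3, the beta chain of a vitronectin receptor of sprouting endothelium and of the platelet fibrinogen receptor, had signals of 1459.5, 1160.2, 1945 and 389 on the tmTNF arrays, 1355, 719, 707 and 1552 on the soluble TNF arrays and 533, 773, 1361 and 1092 on the control arrays. The array tmTNF 4 was the lowest of the 12 and tmTNF 3 the highest. Its log2 fold changes were 0.27 ± 0.48 for tmTNF minus control, 0.20 ± 0.48 for soluble TNF minus control and, between the TNF groups, 0.07 ± 0.48 for tmTNF minus soluble TNF, with adjusted p of 0.952, 0.893 and 0.953 by limma in that order. Under scaling to the same median the last value was -0.16. Without the 3 arrays lowest in endothelial markers it was 0.72, and tmTNF minus control was 1.12 (adjusted p = 0.331 and 0.754 by limma). The second Itgb3 probe set gave 0.85 and 0.66 for the 2 comparisons with control.

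Itgb5, the other beta partner of Itgav, was highest on the arrays with low endothelial marker levels. Its signals were 131, 1712, 269.7 and 821.5 on the tmTNF arrays, 282, 82.9, 108.5 and 269 on the soluble TNF arrays and 99.0, 132, 645 and 173 on the control arrays. The 3 highest arrays were tmTNF 2, tmTNF 4 and control 3. In the fit the log2 fold change was 1.21 ± 0.76 for tmTNF minus control (interval -0.45 to 2.87, adjusted p = 0.813 by limma) and 1.47 ± 0.76 for tmTNF minus soluble TNF (adjusted p = 0.304 by limma). Without those 3 arrays the values were 0.47 and 0.19. For soluble TNF minus control it was -0.26 ± 0.76 (adjusted p = 0.916 by limma), 0.28 without those arrays and 0.31 when all 4 probe sets were averaged. The name of the brightest Itgb5 probe set ends in x_at, which on this platform marks probes that can also match other transcripts. The 3 other probe sets gave 1.60 to 1.98 for tmTNF minus control, and each had its 3 highest arrays in the same places. The probe set that gave 1.98 also has a name ending in x_at.

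**Figure D3:**
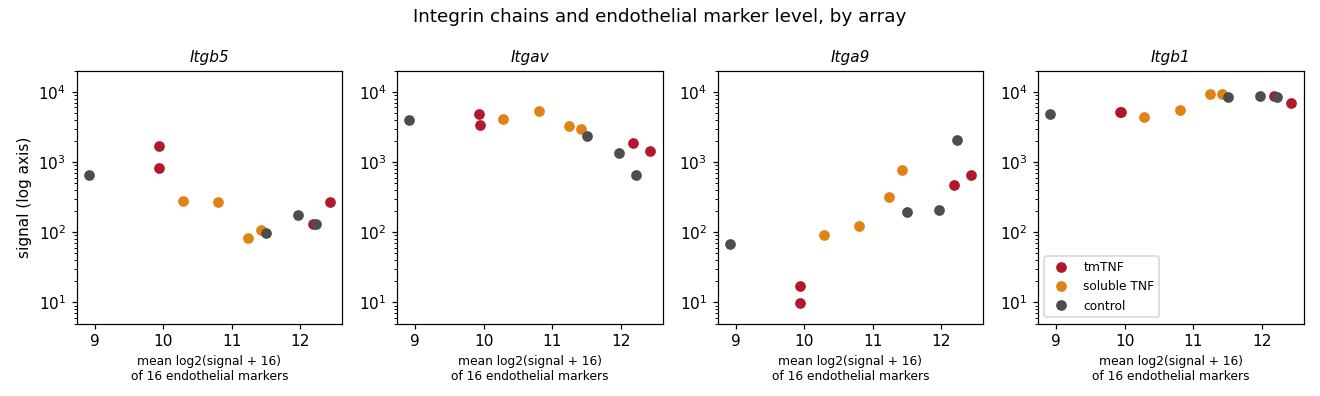
Signal (log axis) of Itgb5, Itgav, Itga9 and Itgb1 against the mean log2(signal + 16) of 16 endothelial markers on the same array, 1 point per array (tmTNF, soluble TNF and control, 4 arrays each). The 3 arrays under 10 on the marker axis, 2 of tmTNF and 1 of control cells, hold the 3 highest Itgb5 signals, 645 to 1712, and the 3 lowest Itga9 signals, 9.9 to 68.3.

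Across the 3 groups, chains could be set beside the endothelial level of each array. In tmTNF, soluble TNF and control cells alike, the 2 arrays with the lower endothelial marker levels had the 2 higher Itgav signals of their group. The same arrays had the 2 lower Itga9 signals and the 2 lower Itgb1 signals of their group. For Itgb5 the 2 higher signals fell on those arrays in tmTNF and soluble TNF cells, while in control cells they fell on control 3 and control 4. These orders are descriptions of 4 arrays per group and were not tested.

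**Figure D4:**
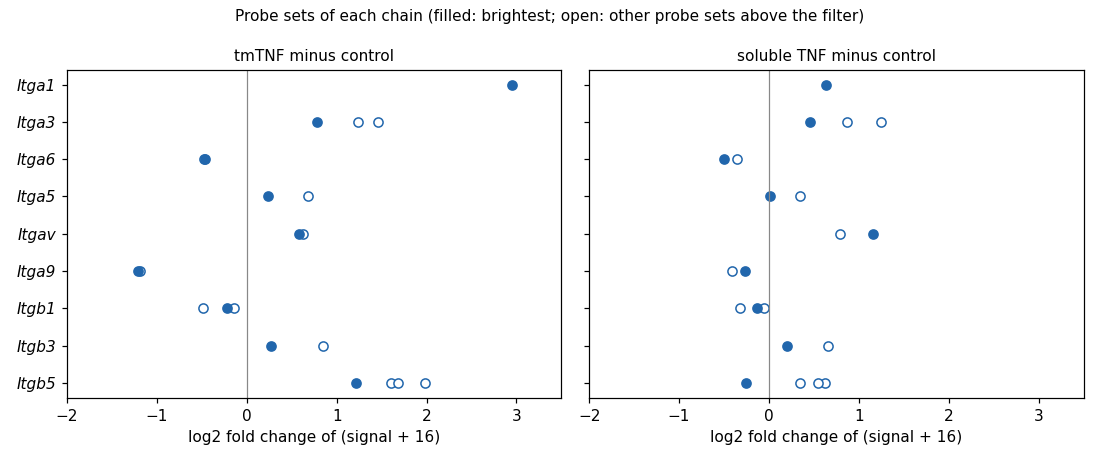
Log2 fold change of (signal + 16) by probe set for the 9 chains tested, for tmTNF minus control and soluble TNF minus control (4 arrays each). Filled points are the brightest probe set and open points the other probe sets that passed the filter. For tmTNF minus control all probe sets of a chain lie on the same side of 0, and for soluble TNF minus control those of Itgb5 lie on both sides.

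Of the 32 probe sets, 21 passed the filter of a signal of 100 on at least 4 arrays. Itgb1 had 6 probe sets of which 3 passed, Itgav 5 of which 2 passed, and Itga5 4 of which 2 passed. For tmTNF minus control the probe sets of each chain that passed the filter shared a direction, as the plot by probe set shows. Below the filter, a probe set of Itga5 (-0.28), of Itgav (-0.48) and of Itgb1 (0.29) went the other way, while the rest did not. Itga5's second probe set gave 0.68 for that comparison, against 0.24 for the brightest, and Itgb1's 3 probe sets above the filter lay between -0.49 and -0.14.

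Promoter sequence is shown for 3 chains that behaved differently, Itga1 with tmTNF and control arrays apart, Itgb5 with its highest signals on the 3 arrays lowest in endothelial markers, and Itgb1 with the lowest spread of the 9. RefSeq promoters of the assembly GRCm38.p6 were available for 8 of the 10 genes in 9 entries. The array names no build, so these places come from RefSeq. In the 250 bases before each annotated start, 4 motifs were searched on both strands, an NF-kB-type motif (GGGA, 4 bases of any kind, CC), an interferon response type motif (GAAA, 2 bases of any kind, GAAA), the GC box (GGGCGG) and the TATA box (TATAAA). Among 32851 promoters, 17.6%, 2.98%, 32.7% and 12.4% held them in that order. Of the 9 entries 2 held the NF-kB-type motif, 1 the interferon response type, 5 the GC box and 0 the TATA box. Matches are in capitals, and each stretch reads 5′ to 3′ on the strand of its gene.
Itga1 (chr13:115101965-115102214, minus strand): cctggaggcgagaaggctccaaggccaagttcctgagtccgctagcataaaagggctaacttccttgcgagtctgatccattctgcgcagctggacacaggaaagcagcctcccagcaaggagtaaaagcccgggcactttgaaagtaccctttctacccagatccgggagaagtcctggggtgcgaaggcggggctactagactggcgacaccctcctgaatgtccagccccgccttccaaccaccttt
Itgb5 (chr16:33829415-33829664, plus strand): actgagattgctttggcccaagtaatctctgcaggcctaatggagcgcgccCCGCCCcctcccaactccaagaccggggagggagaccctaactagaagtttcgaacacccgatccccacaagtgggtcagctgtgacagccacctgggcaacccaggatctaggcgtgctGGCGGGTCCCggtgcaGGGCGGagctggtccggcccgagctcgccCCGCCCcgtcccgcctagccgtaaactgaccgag
Itgb1 (chr8:128685404-128685653, plus strand): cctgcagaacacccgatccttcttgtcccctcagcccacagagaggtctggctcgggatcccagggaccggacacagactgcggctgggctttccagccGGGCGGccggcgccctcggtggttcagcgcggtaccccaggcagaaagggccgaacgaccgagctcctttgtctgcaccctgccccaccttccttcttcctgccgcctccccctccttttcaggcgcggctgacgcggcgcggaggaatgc
The Itga1 stretch held none of the 4 motifs, which says only that these letters are not in this window, and 57.6% of its bases were G or C. The Itgb5 stretch held 1 NF-kB-type match that begins 79 bases before the start, on the opposite strand, and 3 GC boxes, with 65.2% G or C. The Itgb1 stretch held 1 GC box that begins 151 bases before the start, with 68.0% G or C, against a median of 52.4% over all promoters.

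Of 17 other integrin chains, 15 had a probe set and 7 were tested, with 0 called by limma in any comparison. For tmTNF minus control 0 of the 7 had an unadjusted p under 0.05, and in each of the other comparisons 1 had, Itgb2, beside 7.56%, 12.7% and 19.9% of all genes. The shares of all genes called were 0.195%, 0.039% and 1.22%. Itgb2, the beta chain of leukocyte integrins, had signals of 51.8, 597, 517 and 55.6 on the tmTNF arrays, 56.6, 27.1, 16.7 and 68.7 on the soluble TNF arrays and 244, 106, 149.6 and 218 on the control arrays. All soluble TNF arrays were under 100 and under every control array. With them set to 100 the control mean was 1.62-fold higher, a value without allowance for the spread between arrays. The log2 fold change was -1.79 ± 0.72 (95% confidence interval -3.35 to -0.22, adjusted p = 0.347 by limma). Itgb2 was thus 1 of 7 chains without overlap between soluble TNF and control cells, where 8.11% of all genes had none. The soluble TNF arrays of the macrophage marker Cd68 lay under all its control arrays, with a log2 fold change of -3.09 ± 1.41 (adjusted p = 0.392 by limma). The other leukocyte markers tested, Cd14, Lyz2 and Csf1r, gave 0.03, 0.2 and 0.08 for the same comparison. The part of leukocyte transcripts in the Itgb2 value was not tested.

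Itga4, the alpha chain of a leukocyte receptor for VCAM-1, had signals of 767, 37.6, 6.8 and 59.0 on the tmTNF arrays, 243, 324, 119 and 226 on the soluble TNF arrays and 281, 186, 80.4 and 207 on the control arrays. The first tmTNF array was the highest of the 12, and the other 3 tmTNF arrays were the lowest. For tmTNF minus soluble TNF the log2 fold change was -1.33 ± 0.86 (adjusted p = 0.407 by limma), and without tmTNF 1 it was -2.36 (adjusted p = 0.0462 by limma). The remaining tested chains were Itga2b, the platelet alpha chain, with -0.13, -0.54 and 0.41, and Itga7, a laminin receptor chain of muscle, with 0.13, -0.46 and 0.59, for tmTNF minus control, soluble TNF minus control and tmTNF minus soluble TNF. Itgal gave -0.51, 0.06 and -0.56, Itgb4 -0.58, -0.18 and -0.41 and Itgb7 0.15, 0.17 and -0.02 in the same order. Adjusted p of these 5 by limma was at least 0.502. The other 8 chains with a probe set did not pass the filter, and the highest signal among them was 148.

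Genes that connect integrins to actin or signal from them were examined as a list of 36, of which 31 were tested and 0 were called by limma in any comparison. The shares of all genes called were 0.195%, 0.039% and 1.22% for tmTNF minus control, soluble TNF minus control and tmTNF minus soluble TNF. At an unadjusted p under 0.05 there were 2 of 31 for tmTNF minus control and 9 of 31 for each of the other comparisons, beside 7.56%, 12.7% and 19.9% of all genes. Their median log2 fold change was -0.14, 0.07 and -0.19 in that order, against 0.03, -0.05 and 0.08 over all genes. Parva, which encodes the actin-binding adaptor alpha-parvin, had 2117, 1634, 1186 and 1891 on the tmTNF arrays, 4334, 4869.9, 3881 and 4116 on the soluble TNF arrays and 1138, 2912, 2369 and 3038 on the control arrays. All soluble TNF arrays were above all others, and the log2 fold change for tmTNF minus soluble TNF was -1.35 ± 0.30 (adjusted p = 0.0505 by limma). Parva passed for this comparison under 8 of the 22 alternatives, with an adjusted p of 0.00923 to 0.049. The talin-binding actin linker Vcl, for the same comparison, gave -1.06 ± 0.27 (adjusted p = 0.0712 by limma), and the kindlin gene Fermt2 gave -1.52 ± 0.40 (adjusted p = 0.0784 by limma). Each of these passed under 2 alternatives, both with arrays scaled to the same median (adjusted p = 0.0342 by limma), Vcl without tmTNF 1 (0.0319) and Fermt2 with only the arrays of both groups (0.0458). Over all genes, scaling to the same median moved the calls for this comparison from 98 higher and 27 lower to 69 and 173. With only the arrays of both groups, 439 genes were called against 125. For soluble TNF minus control Parva gave 0.95 ± 0.30 and Vcl 0.89 ± 0.27 (adjusted p = 0.277 and 0.268 by limma), both without overlap of the groups, and Tns2, a tensin, gave -1.29 ± 0.23 (adjusted p = 0.101 by limma, 0.0348 without control 4), also without overlap.

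Of 32 matrix ligands of integrins, 25 were tested, and Ccn2 alone was called, lower in tmTNF than in soluble TNF cells, where 1.22% of all genes were called. Ccn2 encodes a secreted matricellular protein that binds integrins. Its signals were 617, 856, 538 and 1165 on the tmTNF arrays, 6254, 11443, 5852 and 5344 on the soluble TNF arrays and 1501, 544, 3557 and 841.5 on the control arrays. The soluble TNF arrays were above all 8 others. The log2 fold change for tmTNF minus soluble TNF was -3.15 ± 0.49 (adjusted p = 0.0126 by limma), and the adjusted p was 0.0557 without the array soluble TNF 2. For soluble TNF minus control it was 2.44 ± 0.49 (adjusted p = 0.156 by limma) and for tmTNF minus control -0.71 ± 0.49 (adjusted p = 0.844 by limma). Without control 3 the soluble TNF minus control value was 2.94 (adjusted p = 0.0215 by limma), and without the 3 arrays lowest in endothelial markers also 2.94 (adjusted p = 0.0233 by limma).

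Thbs1, a thrombospondin, and Ccn1, a matricellular protein of the same family as Ccn2, had their highest signals in soluble TNF cells. Thbs1 had 185, 39.2, 83.1 and 577.5 on the tmTNF arrays, 5184, 2605, 987 and 5608 on the soluble TNF arrays and 32.0, 31.4, 123 and 884 on the control arrays. For soluble TNF minus control its log2 fold change was 4.51 ± 0.98 (adjusted p = 0.174 by limma) and for tmTNF minus soluble TNF -4.21 ± 0.98 (adjusted p = 0.06 by limma). The second value passed under 5 of the 22 alternatives, with an adjusted p of 0.0234 to 0.0493, and the first without control 4, at 5.44 (adjusted p = 0.0314 by limma). Ccn1 gave 3.09 ± 0.73 for soluble TNF minus control (adjusted p = 0.209 by limma) and -2.98 ± 0.73 for tmTNF minus soluble TNF (adjusted p = 0.0701 by limma), and its soluble TNF arrays also lay above all others. The second value of Ccn1 passed with only the arrays of both groups (adjusted p = 0.0446 by limma) and, at -4.08, without the 3 arrays lowest in endothelial markers (adjusted p = 0.0259 by limma). Mfge8, an RGD-bearing ligand of the Itgav receptors, gave 0.65 ± 0.21 for tmTNF minus soluble TNF (adjusted p = 0.13 by limma). Over the 25 ligands the median log2 fold change was 0.11, 0.03 and -0.23 for tmTNF minus control, soluble TNF minus control and tmTNF minus soluble TNF.

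Of 13 membrane partners of integrins, 12 were tested and 0 were called by limma, beside 0.195%, 0.039% and 1.22% of all genes for tmTNF minus control, soluble TNF minus control and tmTNF minus soluble TNF. At an unadjusted p under 0.05 there were 1, 2 and 3 of the 12 in the same order, near the 7.56%, 12.7% and 19.9% of all genes. Cd82, a tetraspanin that associates with integrins, had 410.0, 2466, 2401 and 3457 on the tmTNF arrays, 1117, 760.0, 1246 and 887 on the soluble TNF arrays and 186, 112, 334.5 and 296 on the control arrays. All arrays of both TNF groups were above all control arrays. In the fit the log2 fold change was 2.90 ± 0.57 for tmTNF minus control (adjusted p = 0.0681 by limma) and 2.12 ± 0.57 for soluble TNF minus control (adjusted p = 0.241 by limma). Without the array tmTNF 1, the lowest of its group, the first was 3.58 (adjusted p = 0.00117 by limma), and without the 3 arrays lowest in endothelial markers it was 2.34 (adjusted p = 0.489 by limma). Over all genes these settings called 66 and 4 for tmTNF minus control, against 20 with all arrays. With the mean of its probe sets the tmTNF minus control value of Cd82 was 1.4 (adjusted p = 0.0507 by limma), and the soluble TNF minus control value 1.27 (adjusted p = 0.157 by limma). Slc3a2, the CD98 heavy chain that binds beta tails, gave 0.42, -0.68 and 1.11 for the same 3 comparisons. The caveolin gene Cav1 gave -0.07, 0.58 and -0.65, and the tetraspanin gene Cd9 gave 0.31, -0.32 and 0.63, with an adjusted p of at least 0.164 by limma for each of these 3 genes.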

How the data were processed

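RNA of 12 samples was measured on Affymetrix mouse arrays. Per the submitters' processing notes, the deposited values are MAS5 signal intensities on a linear scale, with a 2% trimmed mean of 1000 on every array. The version and settings are not given in the sources used here. The 4 arrays per group limit the precision. Here the signals of every array were brought to a 2% trimmed mean of 500, leaving out 64 control probe sets, and transformed to log2(signal + 16), a scale that understates changes of dim genes. Probe sets at 100 numbered 18401 to 19174 on tmTNF, 17652 to 18216 on soluble TNF and 17889 to 18359 on control arrays. The 3′ to 5′ signal ratio of the actin control probe sets was 1.119 to 1.29, 1.101 to 1.156 and 1.185 to 1.291 in that order. The part of these array differences in the values of genes was not tested. Of 45101 probe sets, 34945 had 1 symbol, 932 several and 9160 none in the platform annotation. The gene identifiers of all 10 integrin chains were found in RefSeq (GRCm38.p6, used for names and promoters). Probe sets with a signal of 100 on at least 4 arrays were kept (19591), and the brightest probe set of each gene gave 10269 genes.

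All 3 groups entered a single limma fit (version 3.58.1 in R 4.3.3, lmFit and eBayes, trend on intensity). Tests were two-sided, p-values were adjusted by Benjamini-Hochberg across these genes, and 0.05 was the threshold. In simulated data, with noise drawn separately for each gene, the model called 22% to 32% of log2 changes of 1. Of changes of 2 it called 66% to 78%. False calls were 8 of 149 for tmTNF minus control, 8 of 140 for soluble TNF minus control and 15 of 159 for tmTNF minus soluble TNF. Differences shared by a whole array were not simulated. The simulated comparisons with control also had more calls than the real ones, 149 and 140 against 20 and 4. More calls loosen the unadjusted p that is needed for a call. The shares called in the simulation are therefore likely too high for the real comparisons with control. Where all 4 arrays of the dimmer group were under 100, a fold is also given with that group set to 100. It makes no allowance for the spread between arrays. Detection calls were not used. The labels do not say whether replicates were separate cultures or animals, so p-values measure the spread between these samples alone, and that spread may be technical. Replicates are numbered in the order of deposit and pair no arrays.

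The integrin chains, gene lists and tests were chosen with earlier results of these data known. Named genes were the 10 chains, every other chain that passed the filter, called genes of each list with up to 4 more of the smallest unadjusted p, and the 3 genes most correlated with the chain of the smallest p over the 3 groups. Marker genes given as descriptions of arrays were chosen after their values were seen. Alternatives were other scalings, pseudocounts of 1 and 64, filters at 250 or absent, only the arrays compared, no intensity trend, the mean of a gene's probe sets, and each array left out.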

Additional observations from a re-analysis of the deposited data

Results flagged for a closer look

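In each group of 4 arrays, the highest and lowest values were set against the others for the 10 integrin chains, and 3 of 30 groups had an array whose gap to its neighbour, divided by the range of the group, both on the log2(signal + 16) scale, was above Dixon's 95% critical value. By chance about 1 in 20 groups would be so marked. For Itgb1 in control cells the array control 3 was the lowest, at a signal of 4869 against 8386 to 8629, with a ratio of 0.95. For Itga2 in soluble TNF cells the array soluble TNF 3 was the highest, at a signal of 222 against 82.0 to 87.6, with a ratio of 0.937. For Itga6 in soluble TNF cells the array soluble TNF 4 was the highest, at a signal of 6733 against 2990.0 to 3264, with a ratio of 0.892.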

How the results depend on the processing

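Of the integrin chains, 0 passed the threshold in any comparison by limma under any of the 22 alternatives. Of 594 values of single chains 557 kept their sign and 37 changed sign. Many of them could not change sign. Another filter, no intensity trend, only the arrays compared, or an array of the third group left out gave the same fold change as the main fit. The count of kept signs therefore overstates how stable the values were. None of these chains had passed the test, so every change of sign necessarily fell on an uncalled difference. Among the 7 other chains 38 of 444 values changed sign and 1 passed the threshold, and among the 12 list genes 14 of 792 changed sign, 24 newly passed and 1 lost its call. Several of these settings also changed the number of genes called over the whole array, as given below. The alternative without the 3 arrays lowest in endothelial markers (tmTNF 2, tmTNF 4 and control 3) was chosen after seeing the data. No paired analysis was possible because the labels give no replicate numbers, so replicates share only an order of deposit.

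Between tmTNF and control cells 20 genes were called, against 4 without those 3 arrays and 16 to 66 when 1 array was left out (66 without tmTNF 1). Between soluble TNF and control cells, 4 became 2 with only the arrays of both groups, 17 without the 3 arrays and 0 to 22 with 1 array left out, 22 without control 4. Between tmTNF and soluble TNF cells, 125 became 242 with arrays scaled to the same median, where 69 were higher and 173 lower against 98 and 27, 439 with only the arrays of both groups, and 28 to 233 with 1 array left out. Scaling to the same median moved the median of all genes to -0.12, 0.04 and -0.15 for tmTNF minus control, soluble TNF minus control and tmTNF minus soluble TNF.

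Under quantile normalization, sign changes gave Itga7 0 and Itgb2 -0.06 for tmTNF minus control and Itgb1 0.01 for tmTNF minus soluble TNF. With arrays scaled to the same median, sign changes gave Itgb2 -0.03 and Ccn1 -0.03 for tmTNF minus control and Itga5 -0.01, Itga6 -0.20 and Itgb3 -0.16 for tmTNF minus soluble TNF. With a pseudocount of 1, sign changes gave Itgal -0.27 for soluble TNF minus control. With a pseudocount of 64, sign changes gave Itgb7 0 for soluble TNF minus control and Itgb7 0.03 for tmTNF minus soluble TNF. With the mean of a gene's probe sets, sign changes gave Itgb5 0.31 for soluble TNF minus control and Itga6 -0.04 for tmTNF minus soluble TNF. Without the 3 arrays, sign changes gave Itga9 0.33, Itga7 -0.05, Itgb2 -0.04, Itgb7 -0.34, Ccn1 -0.54 and Cd9 -0.02 for tmTNF minus control, Itgb5 0.28, Itga4 -0.03 and Itgal -0.28 for soluble TNF minus control and Itga9 1.22 and Itgb1 0.20 for tmTNF minus soluble TNF.

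With 1 array left out, the values that changed sign for tmTNF minus control ran between -0.03 and 0.47 for Itga5, between -0.02 and 0.74 for Itgb3, between -0.33 and 0.17 for Itga2b, between -0.35 and 0.47 for Itga7, between -0.45 and 0.61 for Itgb2, between -0.52 and 1.06 for Itgb7, between -0.38 and 0.02 for Vcl, between -0.33 and 1.23 for Thbs1, between -0.42 and 0.65 for Ccn1 and between -0.31 and 0.11 for Cav1. With 1 array left out, the values that changed sign for soluble TNF minus control ran between -0.26 and 0.24 for Itga5, between -0.88 and 0.65 for Itga9, between -0.33 and 0.08 for Itgb1, between -0.04 and 0.40 for Itgb3, between -0.56 and 0.28 for Itgb5, between -0.03 and 0.55 for Itga4, between -0.69 and 0.79 for Itgal, between -0.94 and 0.30 for Itgb4 and between -0.43 and 1.09 for Itgb7. With 1 array left out, the values that changed sign for tmTNF minus soluble TNF ran between -0.04 and 0.52 for Itga3, between -0.26 and 0.31 for Itga6, between -0.30 and 0.06 for Itgb1, between -0.22 and 0.54 for Itgb3, between -1.29 and 0.19 for Itgal, between -1.13 and 0.16 for Itgb4 and between -0.69 and 0.58 for Itgb7. The causes were not tested. For the dim chains Itga1, Itga2 and Itga9 the signal over background limits what can be said about order.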
